A study of Mus musculus with 6 samples.

Results

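Transcripts of 9 transcription factor genes that steer mouse T cells into lineages and effector states were followed, namely Tbx21, Gata3, Foxp3, Eomes, Prdm1, Bcl6, Id2, Batf and Irf4. They were picked by gene name from the deposited table, and make up 9 of its 54532 genes. All 9 were among the 15874 genes tested (at least 0.5 FPKM on average, a read count scaled to gene length and library size). RNA had been sequenced from T cells collected after sharing a culture with ID8, a line of mouse ovarian cancer. In 3 libraries the tumour cells had first been exposed to cisplatin (40 µM by the labels), a DNA-crosslinking drug, and in 3 control libraries to PBS. In both groups the T cells came from spleens of C57BL/6 mice (age 6–8 weeks), were enriched by a pan T-cell isolation kit, grown with IL-2 and pre-activated with beads against CD3 and CD28. No altered allele is named for either group. CD4+ and CD8+ cells were not separated, and no library of T cells cultured alone or of ID8 cells alone was analysed here. The study's methods speak of biological replicates, but neither they nor the labels say whether the 3 libraries of a group came from separate mice or cultures, so the p-values measure only the spread between these libraries, part of which may be technical. The comparison asks how the factor transcripts differed between T cells cultured with cisplatin-exposed and with PBS-exposed tumour cells.

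Each of these factors is known for a place in T-cell biology. Tbx21 encodes T-bet, the T-box factor of type 1 helper and cytotoxic cells, and Eomes encodes its relative eomesodermin, prominent in memory and exhausted CD8+ cells. Gata3 directs type 2 helper cells and Foxp3 specifies regulatory T cells. Prdm1 encodes Blimp-1, a transcriptional repressor that promotes terminal effector differentiation, and Bcl6 a repressor required by follicular helper T cells, and each represses the gene of the other. Batf and Irf4 proteins bind composite DNA elements together after antigen receptor signalling, and Id2 blocks E proteins such as those encoded by Tcf3 and Tcf12. Irf4, Prdm1, Bcl6 and Batf also act in B cells and plasma cells.

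The libraries held 30847321 to 32169496 rebuilt reads on genes in the cisplatin group and 30606569 to 31255205 in the control group. The members had between 148 reads (Eomes, control 1) and 5000 reads (Irf4, cisplatin 3) per library. At the mean reads of a factor in a group, the counting error was 1.42% to 5.08% with cisplatin and 2.08% to 7.74% in controls. Defining T-cell markers were present in every library: the summed FPKM of 24 T-cell identity genes was 2725 to 2806 with cisplatin and 1747 to 1866 in controls, and 23 of them rose and 1 fell. Markers of other cells were present as well. Summed FPKM of 12 B-cell markers was 3641 to 3713 with cisplatin and 1703 to 1791 in controls, and that of 10 myeloid markers 131 to 149 and 70.8 to 75.2. Most of the B-cell sum came from Ighm, the immunoglobulin M heavy chain gene (3220 ± 46.7 and 1433 ± 38.0 FPKM). Of the tested genes, 10 of 12 B-cell markers rose and 1 fell, and 7 of 9 myeloid markers rose and 1 fell. Median log2 fold changes were 0.46 for the B-cell, 0.55 for the T-cell identity and 1.12 for the myeloid list. For 15 ID8 epithelial and mesothelial markers the ranges were 218 to 225 and 1491 to 1563, and 12 of 13 tested markers fell. Of the 6 plasma-cell markers the sums were 362 to 367 and 219 to 227, of the 6 NK-cell markers 10.2 to 12.1 and 8.56 to 9.33, and of the 6 dendritic-cell markers 6.89 to 7.06 and 6.49 to 6.92. Tested plasma-cell markers rose in 3 and fell in 2 of 5, NK-cell markers passed in 0 of 4, and dendritic-cell markers rose in 2 and fell in 1 of 3. Over all tested genes, 27.5% passed as higher and 29% as lower. No marker of any list was at 0 in all libraries. The part that these cells play in the differences below was not tested.

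**Figure D1:**
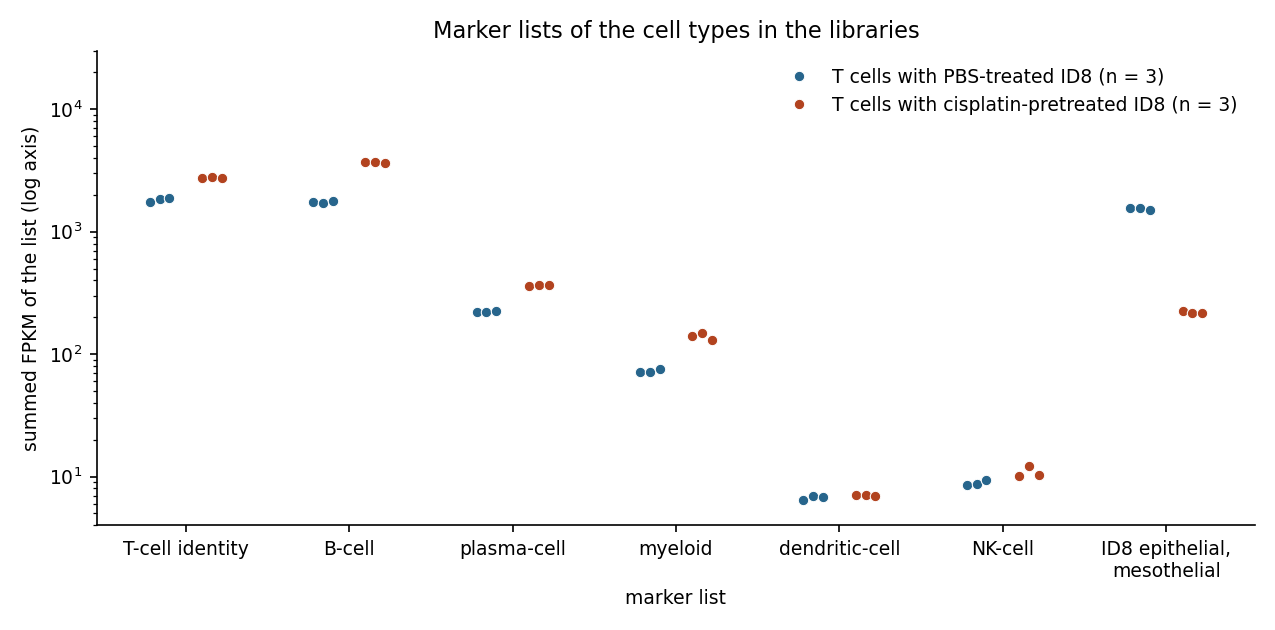
Summed FPKM (log axis) of each marker list in every library, with 1 point per library and colour for the group. The ID8 sums fall from 1491–1563 in controls to 218–225 with cisplatin. The T-cell and B-cell sums lie higher with cisplatin, the B-cell sum being mostly Ighm, and the dendritic-cell ranges overlap.

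Of the 9 factors, 6 were upregulated in the cisplatin group (Foxp3, Eomes, Irf4, Batf, Tbx21 and Prdm1), none was downregulated, and Gata3, Id2 and Bcl6 did not pass (limma, Benjamini-Hochberg adjusted p under 0.05 over all tested genes). This holds for FPKM as deposited. Relative to T-cell identity genes, Tbx21 and Prdm1 no longer passed, Gata3, Id2 and Bcl6 passed as lower (3 of 9), and the signs of Gata3, Id2 and Prdm1 changed. Relative to the same genes, 5.58% of all tested genes passed as higher and 62.7% as lower. On FPKM as deposited, 27.5% of all tested genes passed as higher and 29% as lower, and of 863 tested transcription factor genes 31.5% and 29.7%. Only Foxp3 and Eomes also reached a 2-fold change, the threshold of a call here, whereas Irf4 and Batf fell just short of it. Neither Foxp3 (0.78) nor Eomes (0.53) reached it relative to the T-cell identity genes. Calls as higher made up 4.11% of all tested genes and 1.16% of the transcription factor genes, and calls as lower 12.8% of all tested genes. In 7 of the 9 factors every cisplatin library lay above every control library, against 31.9% of all tested genes, and in Bcl6 and Id2 the groups overlapped. The median log2 fold change of the 9 was 0.59, beside 0.03 over all tested genes and 0.04 over the transcription factor genes. Because these are bulk libraries, fewer cells of a type and less RNA per cell cannot be told apart.

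**Figure D2:**
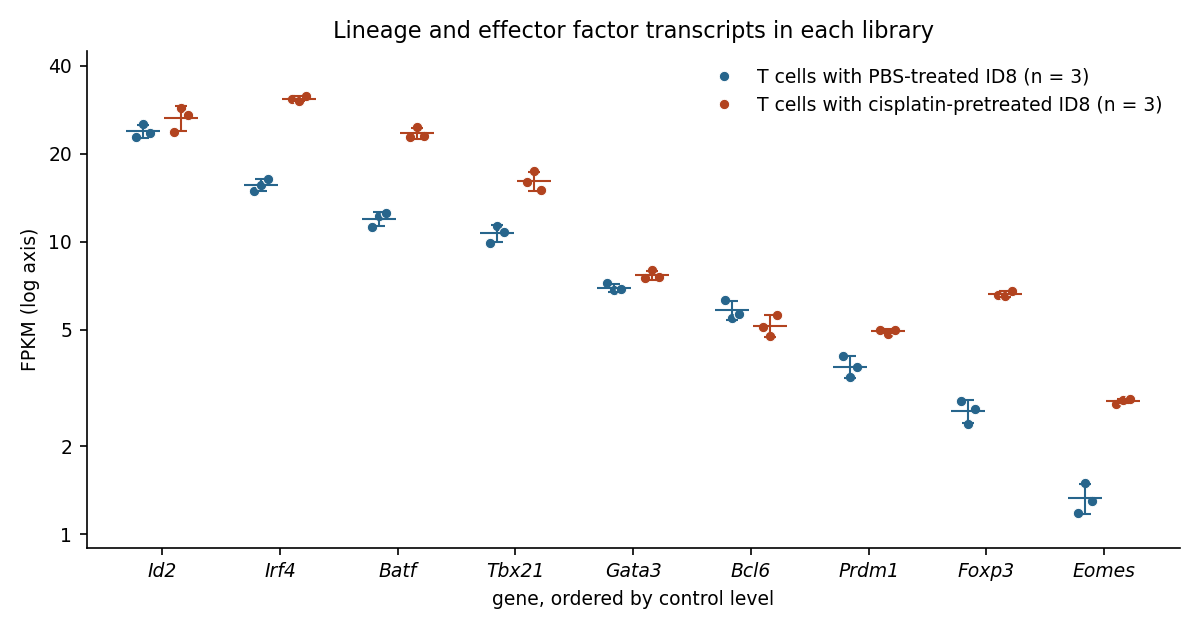
FPKM (log axis) of the 9 factors in each library, with points for libraries and bars for mean ± SD (n = 3 per group). Foxp3, Eomes, Batf and Irf4 separate by roughly the width of a doubling, Bcl6 and Id2 overlap, and Gata3 shows separate groups that lie close together.

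The stretches of DNA around the start sites are shown for the 4 factors with the largest differences and for Bcl6, the one with a negative estimate. All are RefSeq windows of GRCm38.p6, running from 250 bases before to 50 bases after an annotated start, written 5′ to 3′ on the strand of the gene. All 9 factors had a window, 11 in all, since Foxp3 and Bcl6 have 2. For Foxp3 and Bcl6 only the second window is printed. In both genes it surrounds a start site inside the gene and held more matches than the first. Capitals mark matches, on either strand, to AP-1 (TGANTCA), the STAT-bound GAS element (TTCNNNGAA), an interferon regulatory factor element (GAAANNGAA), a T-box element (AGGTGTGA) or the element bound by Gata3 and its relatives (AGATAA), called GATA here. N stands for any base, and no match overlapped another. The second Foxp3 window is chrX:7580233-7580532 (+), the Eomes window chr9:118477939-118478238 (+), the Batf window chr12:85686470-85686769 (+), the Irf4 window chr13:30748983-30749282 (+) and the second Bcl6 window chr16:23981234-23981533 (-).
Foxp3, second window: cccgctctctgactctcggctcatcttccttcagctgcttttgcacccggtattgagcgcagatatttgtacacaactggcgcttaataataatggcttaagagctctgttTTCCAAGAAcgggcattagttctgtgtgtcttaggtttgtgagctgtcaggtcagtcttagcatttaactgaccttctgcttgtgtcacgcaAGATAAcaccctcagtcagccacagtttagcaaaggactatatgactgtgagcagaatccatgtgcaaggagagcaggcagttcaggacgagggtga
Eomes: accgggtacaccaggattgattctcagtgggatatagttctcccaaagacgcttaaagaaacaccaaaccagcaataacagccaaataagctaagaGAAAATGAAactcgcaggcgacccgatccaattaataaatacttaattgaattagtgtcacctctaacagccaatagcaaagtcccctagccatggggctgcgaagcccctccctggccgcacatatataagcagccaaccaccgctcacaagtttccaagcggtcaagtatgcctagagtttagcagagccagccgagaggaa
Batf: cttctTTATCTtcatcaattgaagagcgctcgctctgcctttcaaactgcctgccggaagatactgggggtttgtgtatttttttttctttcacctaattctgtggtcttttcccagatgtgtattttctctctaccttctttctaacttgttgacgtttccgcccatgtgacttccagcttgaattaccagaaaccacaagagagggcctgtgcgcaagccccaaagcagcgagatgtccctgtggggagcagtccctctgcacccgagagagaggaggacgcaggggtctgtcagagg
Irf4: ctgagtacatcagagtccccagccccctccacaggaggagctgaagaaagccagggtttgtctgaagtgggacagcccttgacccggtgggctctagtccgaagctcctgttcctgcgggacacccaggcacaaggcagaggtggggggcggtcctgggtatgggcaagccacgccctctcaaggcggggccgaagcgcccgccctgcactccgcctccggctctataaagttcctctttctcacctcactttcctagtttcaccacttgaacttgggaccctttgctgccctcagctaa
Bcl6, second window: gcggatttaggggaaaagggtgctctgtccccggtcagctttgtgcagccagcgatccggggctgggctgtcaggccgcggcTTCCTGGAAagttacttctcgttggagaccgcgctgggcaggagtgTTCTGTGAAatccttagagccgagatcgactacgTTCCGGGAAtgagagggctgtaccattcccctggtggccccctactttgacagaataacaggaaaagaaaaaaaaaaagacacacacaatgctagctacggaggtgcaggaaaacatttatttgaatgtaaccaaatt

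The second Foxp3 window held a GAS match at position -139 from its start site and a GATA match at -47. In the Eomes window a single interferon regulatory factor match lay at -154. The Batf window held a GATA match on the other strand, at position -245. The second Bcl6 window carried 3 GAS matches, at -168, -122 and -88, and the first Bcl6 window 1 more. The Irf4 window matched none of the motifs. Of the windows not printed, that of Prdm1 held an AP-1 match at -48, and those of Tbx21, Gata3 and Id2 and the first of Foxp3 held none. Among 32851 windows, AP-1 letters occurred in 7.81%, GAS in 8.3%, the interferon regulatory factor element in 8.56%, the T-box element in 1.28% and GATA in 11.2%. These matches describe the sequence and were not measured as bound sites.

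Foxp3 (chrX:7579676-7595243, +), the gene of regulatory T cells, changed the most. Its FPKM was 6.57, 6.51 and 6.79 in the cisplatin libraries and 2.86, 2.39 and 2.69 in the control libraries. Every cisplatin value lay well above every control value. The means were 6.62 ± 0.147 and 2.64 ± 0.235 (SD, n = 3 each), and the log2 fold change was 1.30 ± 0.08 (SE; 95% interval 1.10 to 1.49; limma adjusted p = 1.8e-05). This stood at percentile 99.7 of the log2 fold changes of the 863 transcription factor genes. Exons of 3 other genes share 1339 bases, summed over these genes, with Foxp3 in GENCODE M21. Reads there could have been split between them by the authors' counting, whose strand setting is not given in the sources used here. The coordinates of Foxp3 differ between GENCODE M21 (4100 exon bases) and the deposited data (length 3989), so the shared bases hold for the former only. Beside it, 12 other genes of the regulatory T-cell programme were read. Of these, all tested, 8 rose, 1 fell and 3 did not pass, with a median of 0.35 and none called. Over all tested genes, 27.5% passed as higher and 29% as lower, and 4.11% were called higher.

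Eomes (chr9:118478212-118486132, +) had the lowest level of the 9. It measured 2.80, 2.88 and 2.90 FPKM with cisplatin and 1.19, 1.501 and 1.30 in controls. The cisplatin libraries lay close together, and all of them exceeded the controls. The means of 2.86 ± 0.0558 and 1.33 ± 0.159 gave a log2 fold change of 1.05 ± 0.12 (95% interval 0.77 to 1.33; limma adjusted p = 3.0e-04). Its call at 2-fold was lost with a pseudocount of 1 (log2 fold change 0.73), relative to the T-cell identity genes (0.53) and without control replicate 1 (0.98).

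Tbx21 (chr11:97098071-97115331, -), the other T-box gene, was 16.03, 17.4 and 15.0 FPKM with cisplatin and 9.95, 11.4 and 10.8 in controls. The lowest cisplatin library exceeded the highest control library. The log2 fold change was 0.59 ± 0.07 (95% interval 0.41 to 0.76; limma adjusted p = 5.2e-04), from means of 16.2 ± 1.20 and 10.7 ± 0.710. Tbx21 was thus the more abundant of the T-box genes per length in both groups, and Eomes the more changed. Within a library, the ratio of Tbx21 to Eomes FPKM was 5.73, 6.05 and 5.17 with cisplatin and 8.38, 7.56 and 8.31 in controls, a log2 difference of -0.52 with no overlap. With a pseudocount of 1 on both genes, this difference was -0.18.

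Gata3 (chr2:9857078-9890034, -) gave 7.51, 8.03 and 7.55 FPKM with cisplatin and 7.23, 6.82 and 6.88 in controls. The groups did not overlap, but the gap was small. The means were 7.70 ± 0.285 and 6.98 ± 0.217, and the log2 fold change of 0.14 ± 0.05 (95% interval 0.01 to 0.26) missed the threshold after adjustment (limma adjusted p = 0.059). Against it, Tbx21 stood higher within the same library: the ratio of Tbx21 to Gata3 was 2.14, 2.17 and 1.99 with cisplatin and 1.38, 1.66 and 1.57 in controls. The ratio of Foxp3 to Gata3 was 0.874, 0.812 and 0.899 against 0.395, 0.350 and 0.391, a log2 difference of 1.19.

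Prdm1 (chr10:44437177-44528501, -), the Blimp-1 gene, had 4.996, 4.86 and 5.02 FPKM with cisplatin and 4.08, 3.44 and 3.72 in controls. The cisplatin libraries were all above the controls. Its log2 fold change was 0.40 ± 0.08 (95% interval 0.21 to 0.58; limma adjusted p = 0.0045), from means of 4.96 ± 0.0865 and 3.75 ± 0.318. Prdm1 also acts in plasma cells, whose summed markers were 219–227 FPKM in controls and 362–367 with cisplatin. Of their 5 tested markers 3 rose and 2 fell (over all tested genes 27.5% and 29%). Jchain was called higher (46.8 FPKM in controls, 148 with cisplatin) and Sdc1 called lower (29.7 and 9.45). The part of plasma cells was not tested.

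Bcl6 (chr16:23965052-23988852, -), its opponent, gave 5.11, 4.77 and 5.63 FPKM with cisplatin and 6.32, 5.50 and 5.69 in controls. The groups overlapped, since cisplatin 3 lay above control 2. The means were 5.17 ± 0.437 and 5.84 ± 0.434, and the log2 fold change of -0.17 ± 0.09 (95% interval -0.38 to 0.03) did not pass (limma adjusted p = 0.13). Inside the libraries the ratio of Prdm1 to Bcl6 was 0.978, 1.02 and 0.891 with cisplatin and 0.645, 0.627 and 0.654 in controls. The pair was therefore close to equal in FPKM with cisplatin, whereas Bcl6 was ahead in every control library.

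Batf (chr12:85686669-85709087, +), a basic leucine zipper factor, had 22.8, 24.7 and 23.0 FPKM with cisplatin and 11.2, 12.2 and 12.5 in controls. The groups were widely separated. The means of 23.5 ± 1.06 and 12.0 ± 0.696 gave a log2 fold change of 0.97 ± 0.06 (95% interval 0.83 to 1.10; limma adjusted p = 1.4e-05).

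Irf4 (chr13:30749226-30766976, +), which acts with Batf, had 30.7, 30.4 and 31.5 FPKM with cisplatin and 14.9, 15.6 and 16.4 in controls. No library of one group approached the other. The log2 fold change was 0.98 ± 0.04 (95% interval 0.88 to 1.08; limma adjusted p = 3.8e-06), from means of 30.9 ± 0.546 and 15.6 ± 0.720. Of 12 B-cell markers, which Irf4 can accompany, 10 rose and 1 fell (over all tested genes 27.5% and 29%). Their median log2 fold change was 0.46. Their summed FPKM (3641–3713 against 1703–1791) was mostly that of 1 gene, Ighm. The part of B cells in the Irf4 difference was not tested. Both partners thus differed by close to the same factor. The ratio of Batf to Irf4 was 0.743, 0.813 and 0.729 with cisplatin and 0.751, 0.784 and 0.767 in controls, and the groups overlapped (log2 difference -0.01, two-sided exact permutation p = 0.9).

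Id2 (chr12:25093799-25097140, -), the inhibitor of E proteins, was the most abundant factor in controls. Its FPKM was 23.7, 28.7 and 27.1 with cisplatin and 22.8, 25.2 and 23.5 in controls. Cisplatin 1 fell inside the control range, so the groups overlapped. The means were 26.5 ± 2.55 and 23.9 ± 1.24, with a log2 fold change of 0.15 ± 0.08 (95% interval -0.04 to 0.33; limma adjusted p = 0.15). Id3, which encodes a second inhibitor of the same family, rose by 0.51 on the log2 scale (limma adjusted p = 0.0039), from 9.17 ± 0.880 to 13.1 ± 1.35 FPKM, but differed by -0.01 relative to the T-cell identity genes. The ratio of Id2 to Id3 was 1.61, 2.32 and 2.20 with cisplatin and 2.48, 2.51 and 2.84 in controls. Its log2 difference was -0.37, and -0.21 without cisplatin replicate 1.

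**Figure D3:**
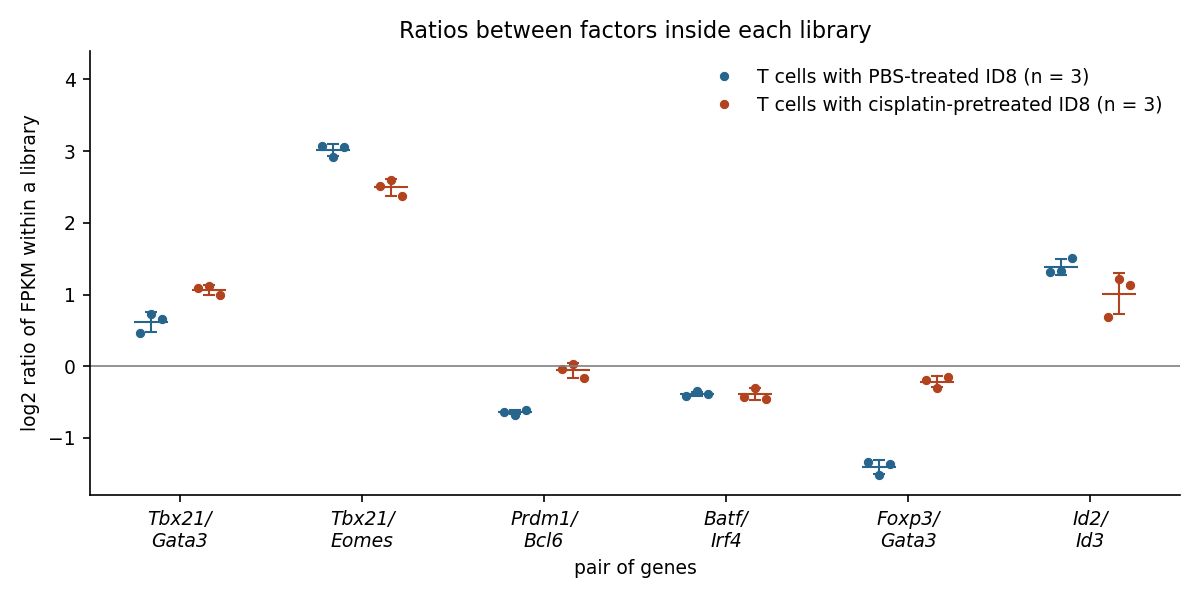
Log2 ratio of FPKM between paired factors inside each library, with points for libraries and bars for mean ± SD (n = 3 per group). The groups are apart in 5 of the 6 pairs, and Batf to Irf4 overlaps.

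In all, 6 pairs were compared in this way, because a ratio inside a library does not depend on how libraries are scaled to each other. In 5 pairs the groups did not overlap, with log2 differences of 0.45 for Tbx21 to Gata3, 0.58 for Prdm1 to Bcl6 and 1.19 for Foxp3 to Gata3, and of -0.52 for Tbx21 to Eomes and -0.37 for Id2 to Id3. Each of these had a two-sided exact permutation p of 0.1, the smallest that 3 against 3 libraries allow, and 0.12 after adjustment over the 6 pairs. No pair could have passed 0.05 in this design.

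The scale between libraries mattered for several factors. The mean log2 level of the 24 T-cell identity genes was 6.32 ± 0.020 with cisplatin and 5.80 ± 0.027 in controls (SD, n = 3), a difference of 0.52, or 1.43-fold. With each library centred on these genes, Foxp3 stayed higher by 0.78 (limma adjusted p = 1.9e-04), Eomes by 0.53 (0.0051), Irf4 by 0.46 (4.4e-05) and Batf by 0.45 (1.6e-04). Tbx21 came to 0.07 (adjusted p = 0.41) and Prdm1 to -0.12 (0.25), neither passing. Gata3, Id2 and Bcl6 passed as lower, at -0.38 (8.7e-04), -0.37 (0.0025) and -0.69 (5.1e-04). On this scale the median of all tested genes was -0.49, and 5.58% of all tested genes passed as higher and 62.7% as lower. Foxp3, Eomes, Batf and Irf4 were thus higher than the T-cell identity genes had risen, Tbx21 and Prdm1 could not be separated from them, and the other 3 lagged behind.

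**Figure D4:**
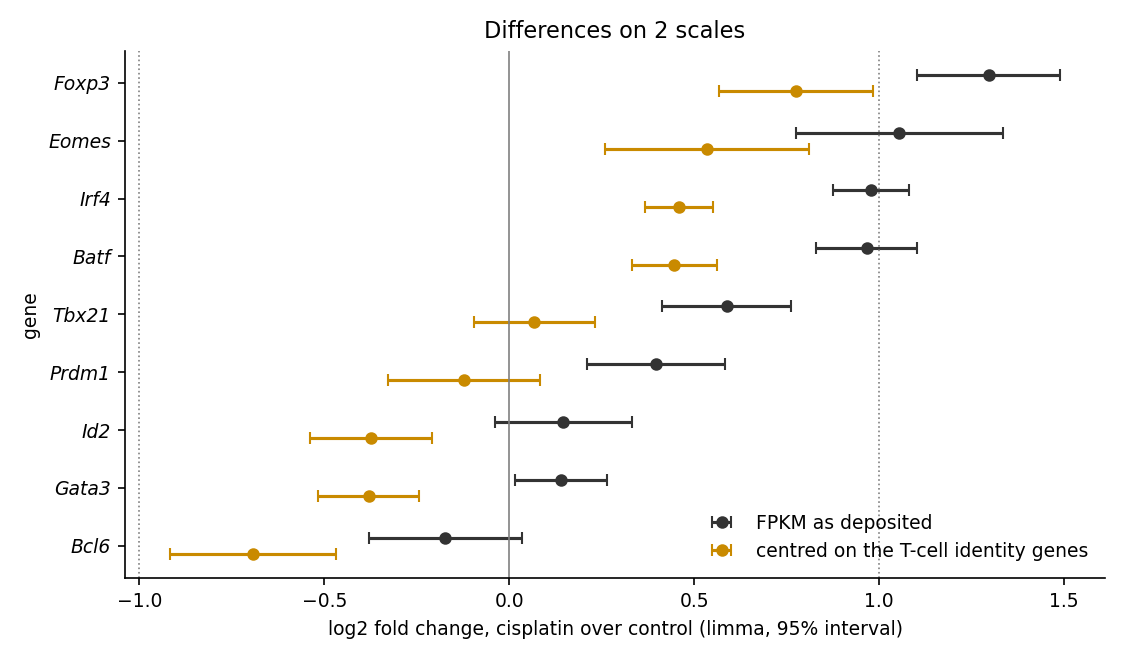
Log2 fold change of each factor (cisplatin over control, limma, 95% interval) on FPKM as deposited and relative to the 24 T-cell identity genes, with dotted lines at a 2-fold change. Foxp3, Eomes, Batf and Irf4 lie to the right of 0 on both scales, and Gata3, Prdm1 and Id2 change side.

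Ratios to marker genes, chosen after their values were seen and not tested, were also formed within libraries. Foxp3 to Cd4, the helper coreceptor gene, had a geometric mean of 0.123 with cisplatin and 0.0651 in controls, and Foxp3 to Il2ra, the IL-2 receptor alpha gene, 0.280 and 0.171. Eomes to Cd8a, the cytotoxic coreceptor gene, averaged 0.0260 and 0.0163, and Tbx21 to Cd8a 0.147 and 0.132. Irf4 averaged 0.778 and 0.490 of Cd3e, a T-cell receptor complex gene, and 0.256 and 0.169 of Cd79a, a B-cell receptor gene. In all 6 ratios the groups did not overlap. These ratios depend on the marker chosen. Cd3e, Cd4 and Cd8a rose by 0.32, 0.41 and 0.43 on the log2 scale, below the T-cell identity median of 0.55. Cd79a rose by 0.38, below the B-cell median of 0.46, and Il2ra by 0.61, above the regulatory list's 0.35. Ighm, of the B-cell list, rose by 1.17, more than Irf4 (0.98). Batf to Batf3, its close relative, was 2.83 and 2.80 and overlapped.

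The order of the levels, per length in FPKM, changed with these differences. In controls it ran Id2, Irf4, Batf, Tbx21, Gata3, Bcl6, Prdm1, Foxp3, Eomes, and only Batf and Tbx21 overlapped as neighbours. With cisplatin it ran Irf4, Id2, Batf, Tbx21, Gata3, Foxp3, Bcl6, Prdm1, Eomes, and the overlapping neighbours were Id2 with Batf and Bcl6 with Prdm1. Irf4 moved ahead of Id2, and Foxp3 moved ahead of both Bcl6 and Prdm1. Replicate spread was small in either group, with a coefficient of variation of 1.75% to 9.64% with cisplatin and 3.11% to 12.0% in controls, the last being Eomes.

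Genes around the factors were read from the same fit, in which 27.5% of all tested genes passed as higher and 29% as lower. Of 16 partners and relatives (Jun, Id, Runx and E-protein genes among them), 15 were tested, of which 7 rose, 5 fell and 3 did not pass, with a median log2 fold change of 0.04. Batf2, a relative of Batf known from interferon responses, was the only call, at 1.16 ± 0.0469 FPKM with cisplatin and 4.001 ± 0.112 in controls (log2 fold change -1.71, limma adjusted p = 8.3e-06). Jun, which pairs with Batf proteins and was named after its values were seen, fell from 55.7 ± 2.85 to 29.6 ± 0.681 FPKM (log2 fold change -0.91, limma adjusted p = 6.0e-06). Batf and Batf2 therefore moved in opposite directions.

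Among 23 other lineage and memory factors, all tested, 14 rose, 6 fell and 3 did not pass, with a median of 0.56. Over all tested genes, 27.5% rose and 29% fell, with 4.11% called higher and 12.8% called lower. The called genes of the list went both ways. Myb, a progenitor and memory factor, was 10.5 ± 0.206 with cisplatin and 3.10 ± 0.295 FPKM in controls (log2 fold change 1.73, limma adjusted p = 4.5e-06), and Gfi1, a zinc finger repressor, 36.1 ± 1.80 and 17.5 ± 0.684 (1.04, adjusted p = 5.5e-06). Called lower were Ahr, the aryl hydrocarbon receptor gene, at 3.07 ± 0.173 and 10.3 ± 0.346 (-1.71, limma adjusted p = 1.7e-06), and Nfil3, a basic leucine zipper factor, at 11.6 ± 1.005 and 31.8 ± 1.56 (-1.45, adjusted p = 5.7e-06). Maf, a factor of several helper subsets, was called lower too, at 8.57 ± 0.264 and 18.2 ± 0.234 (-1.08, limma adjusted p = 1.8e-06).

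Genes that the factors are known to control, or that mark their lineages, were counted next. For comparison, 27.5% of all tested genes rose, 29% fell and 4.11% were called higher. Of the 24 T-cell identity genes 23 rose, with a median log2 fold change of 0.55. Of 14 tested genes of the type 1 and cytotoxic programme, 11 rose, 1 fell and 2 did not pass, with a median of 0.41. Called were Ccl3 (6.03 ± 2.02 with cisplatin, 1.40 ± 0.234 in controls), Xcl1 (6.18 ± 1.26 and 1.66 ± 0.405) and Ccl4 (4.77 ± 0.950 and 1.37 ± 0.535), all chemokine genes, and Cxcr3, a chemokine receptor gene activated by T-bet (57.5 ± 1.21 and 28.6 ± 1.09 FPKM). Their log2 fold changes were 1.98, 1.84, 1.78 and 1.003 (limma adjusted p = 8.6e-04, 4.7e-04, 0.0019 and 2.0e-06). The gene that fell was Prf1, encoding perforin (named after its values were seen), at 8.95 ± 0.906 and 10.6 ± 0.00631 FPKM (log2 fold change -0.25, limma adjusted p = 0.027). Ifng, the interferon gamma gene, was below the filter on low values, with 18, 43 and 34 reads with cisplatin and 8, 11 and 10 in controls.

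Of 6 tested type 2 genes, 2 rose and 4 did not pass, and the cytokine genes Il5 and Il13 were below the filter. The follicular helper list had 7 of 9 tested genes higher and 2 that did not pass. Its call was Tnfsf8, encoding CD30 ligand, at 38.7 ± 0.756 and 19.0 ± 1.04 FPKM (log2 fold change 1.02, limma adjusted p = 4.7e-06). Of 15 upstream inputs (STAT, Notch and cytokine receptor genes), 10 rose, 3 fell and 2 did not pass, with a median of 0.22 and no call. Before centring, 27.5% of all tested genes were higher and 29% lower. After centring, the counts of higher and lower genes became 1 and 11 for the partners, 9 and 11 for the other lineage factors, 2 and 11 for the upstream inputs, 5 and 5 for the type 1 programme, 0 and 0 for type 2, 1 and 5 for the regulatory T-cell genes and 2 and 2 for the follicular helper genes. Shares over all tested genes after centring were 5.58% higher and 62.7% lower.

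**Figure D5:**
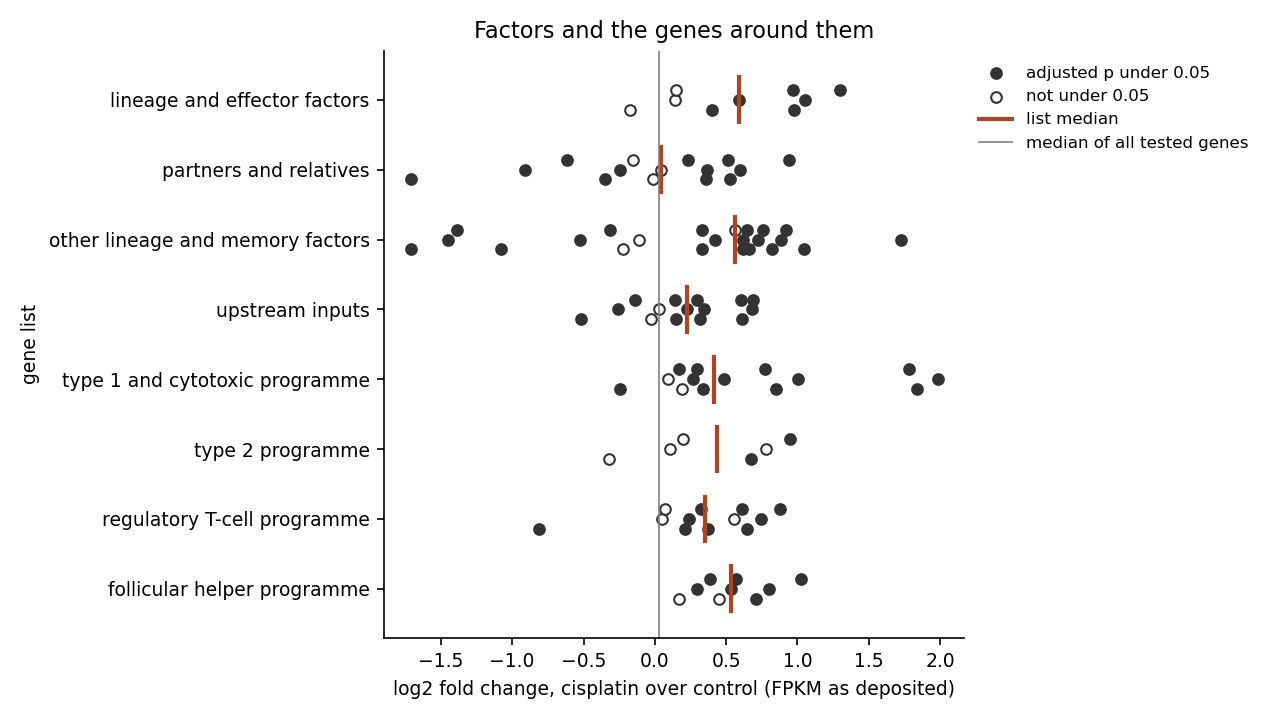
Log2 fold change (cisplatin over control, FPKM as deposited) of each tested gene in the 9 factors and the lists around them, filled where adjusted p is under 0.05, with list medians as bars and the median of all tested genes as a line. The factors have a median of 0.59, the partners 0.04 and the other lineage factors 0.56.

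For each factor, the 2 protein-coding genes with the most similar profile were sought among 7665 genes averaging at least 5 FPKM, by root-mean-square distance of centred log2 values over the 6 libraries. Foxp3 was nearest to Lilrb4a (distance 0.019) and Lilr4b (0.037), Irf4 to Ddx21 (0.028) and Ipcef1 (0.030), and Batf to Snn (0.019) and Sh2d2a (0.040), the last also one of the T-cell identity genes. Tbx21 was nearest to Mrps11 (0.029) and Plekho1 (0.030), Eomes to Cd1d1 (0.049) and Cyba (0.064), and Prdm1 to Acox3 (0.021) and Vps36 (0.023). Gata3 lay by Mvk (0.014) and Tbc1d13 (0.016), Id2 by Parg (0.028) and Nudt16 (0.039), and Bcl6 by Usp11 (0.035) and Slc35a1 (0.041). All of these profiles share the same 6 libraries and the same contrast of 2 groups.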

How the data were processed

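RNA of 6 T-cell libraries (3 cisplatin, 3 control, grouped by the treatment label) was analysed from the FPKM table that the authors deposited, in which read counts were divided by gene length and a library factor. The submitters' processing notes name fastp, HISAT2 2.0.5, featureCounts 1.5.0-p3 and mm10, whereas the methods of the study name LifeScope. The strand setting and the treatment of reads matching several genes are not given in the sources used here. Gene coordinates were those of GENCODE M21 (GRCm38) for 53499 of 54409 shared genes.

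Tests used limma 3.58.1 (R 4.3.3; lmFit, eBayes with trend) on log2(FPKM + 0.1) over the 15874 genes averaging 0.5 FPKM or more, with Benjamini-Hochberg adjustment, so fold changes of low genes are understated. A call needed an adjusted p under 0.05 and a 2-fold change. Whole reads were rebuilt from FPKM and gene length (100% of values within 0.1 of a whole read). They served for read counts, depth, counting error, the comparison of replicates, the voom alternative and the simulation, not for the main tests. Replicates differed beyond sampling noise (chi-square per degree of freedom 5.11 to 5.99). Pair ratios used two-sided exact permutation tests. Of the steps, the limma and voom fits were tested on simulated data. There, few genes were changed, as many raised as lowered, each by more than 2-fold. Calls in the deposited data were not balanced (4.11% of tested genes higher, 12.8% lower). The simulation therefore did not cover smaller differences or the scaling between libraries.

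The 9 factors, the gene lists and the tests were chosen with earlier results of these data known. Named were all 9 factors, called genes of each list (at most 5), partners in the pairs and the 2 genes nearest in profile. Alternatives were other pseudocounts, filters and scalings, TPM, no trend, limma voom on rebuilt reads, leaving out each library and the replicate number as a block. Promoter windows came from RefSeq. Some list genes are not reported here.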

Additional observations from a re-analysis of the deposited data

How the results depend on the processing

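Foxp3, Eomes, Batf and Irf4 were higher and passed under every alternative that tested them (log2 fold change 0.78 to 1.47, 0.53 to 1.25, 0.45 to 1.06 and 0.46 to 1.08). Centring on the T-cell identity genes reversed Gata3 (-0.38), Prdm1 (-0.12) and Id2 (-0.37), gave 3 factors lower and 0 called higher, and moved the counts of higher and lower genes to 1 and 11 (partners), 9 and 11 (other lineage factors), 2 and 11 (upstream inputs), 5 and 5 (type 1), 1 and 5 (regulatory), 2 and 2 (follicular) and 0 higher (type 2). With that centring, 62.7% of all tested genes passed as lower and 5.58% as higher. The number called higher was 1 with a pseudocount of 1, 4 with quantile normalization, 4 with voom, and 1 to 3 on leaving out single libraries (1 without control replicate 1, 3 without control replicate 3). A minimum of 5 FPKM, which leaves out Foxp3, Eomes and Prdm1, gave 3 higher and 0 called, 5 type 1 genes higher and 0 type 2 genes higher. The single type 1 gene that fell, Prf1, was lost with quantile normalization (0) and voom (0), and on leaving out any library but cisplatin replicate 1 (0 to 1). The Batf to Irf4 difference spanned -0.059 to 0.020 on leaving out single libraries (positive at 0.0061, 0.020 and 0.0045). Tbx21 to Eomes was -0.18 with a pseudocount of 1, and Id2 to Id3 was -0.21 without cisplatin replicate 1. Id2 passed with quantile normalization, voom, the replicate block and without cisplatin replicate 1 (0.22), and Gata3 with quantile normalization and voom. The causes of these shifts were not tested.

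Replicate numbers did not pair the libraries: same-number correlations were 0.0229, -0.063 and -0.0207, and not every library correlated best with its own number. With the replicate block, 7 factors were higher (Id2 joined, adjusted p = 0.049) and 2 were called. The 3 libraries per group limit precision, and the minimum of 0.5 FPKM left Ifng untested.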

Other observations

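Flicr, a long non-coding RNA gene on the same strand just upstream of Foxp3 whose exons share 376 bases with it in GENCODE M21, was chosen after its values were seen. Its FPKM was 1.28, 1.31 and 1.11 in the cisplatin libraries and 0.513, 0.504 and 0.529 in controls (means 1.23 ± 0.110 and 0.516 ± 0.0127), resting on 128 to 155 and 54 to 58 reads. The log2 fold change was 1.11 (limma adjusted p = 0.0024), and the groups did not overlap. Ccdc22, on the other strand, shares 590 bases with Foxp3 and is listed at 0 in all libraries. How reads of the shared bases were assigned was not tested.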
